A study of Mus musculus with 12 samples.

Results

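The transcripts described here are those of 9 chemokines that steer lymphocytes and other leukocytes: Cxcl9, Cxcl10 and Cxcl11, the ligands of the receptor CXCR3, and Cxcl12, Cxcl13, Cxcl14, Cxcl16, Xcl1 and Cx3cl1. They were picked by symbol, and all 9 were found among the 54532 genes of the deposited count table. The RNA came from tumours that wild-type B16F10 cells, a mouse melanoma line, formed in the skin of male mice aged 8 to 12 weeks, which received cells in both legs. The 6 Ctrl libraries came from hosts with Trex1 wt/fl and the 6 iKO libraries from hosts with Trex1 fl/fl, and all hosts also carried R26CreERT2-ki/wt, a tamoxifen-activated Cre expressed from the Rosa26 locus and therefore not limited to a cell type. All hosts received 1 mg of tamoxifen a day on 3 days from day 5 after implantation, and tumours were taken on day 14. Ctrl hosts thus had 1 floxed copy and the same Cre and tamoxifen as iKO hosts.

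Tumours were digested and sorted for cells negative for CD45, which marks leukocytes, and CD31, which marks endothelium, although the protocol leaves unclear whether cells had to lack both. The labels also name single cells and immune cells, whereas the table holds 1 bulk library per sample, 12 in all. The libraries held 29808243 to 45828565 counts (34342436 or more in Ctrl, 35520399 or fewer in iKO), and no label ties a library to a mouse, so some may share one and p-values measure only the spread between libraries, which may be technical. Trex1 had 0 counts in all 12 libraries and could not check the genotype labels. It was at 0 also in Ctrl, whose hosts kept a wild-type copy. The reason was not tested, so the 0 counts do not show that Trex1 was silent. Markers of the melanocyte lineage, the labelled tumour type, summed to 27328 to 27954 CPM in Ctrl and 21381 to 28507 CPM in iKO (CPM are counts scaled to library size by TMM, edgeR's correction for library make-up). Of these 8 markers 6 were lower and 1 higher in iKO (median log2 fold change -0.39). Ptprc, which encodes CD45, was not absent: it ranged from 0.158 to 15.6 CPM in Ctrl, with Ctrl 5 highest, and from 17.4 CPM in iKO 1 to 345 CPM in iKO 4. Pecam1, which encodes CD31, was at 3.06 to 5.08 CPM in Ctrl and 3.88 to 14.8 CPM in iKO. It was higher in iKO, with overlapping groups (log2 fold change 1.38, edgeR, adjusted p = 0.000565). Transcripts of 10 leukocyte markers were all higher in iKO (median log2 fold change 5.07), and Ctrl 5 and iKO 1 lay between the other libraries of the groups in them.

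Chemokines are small secreted or membrane-bound proteins that bind G protein-coupled receptors and guide cells along gradients. The CXCR3 ligands are induced by interferons and draw activated T cells and natural killer cells into tissue; Cxcl9 depends mainly on interferon gamma, whereas Cxcl10 and Cxcl11 also respond to type I interferon. The other members serve other receptors: CXCL12 is made by stromal cells and binds CXCR4 and ACKR3, CXCL13 attracts B cells and follicular T cells through CXCR5, CXCL16 and CX3CL1 are held on membranes and bind CXCR6 and CX3CR1, XCL1 from T cells and natural killer cells attracts dendritic cells with XCR1, and CXCL14 is abundant in normal skin.

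Cxcl9, Cxcl10 and Cxcl11 stand side by side on the minus strand of chromosome 5 (mm10), at 92321347 to 92328079, 92346638 to 92348889 and 92359544 to 92365485, and all 3 fit within 44139 bases. RefSeq promoter sequences (GRCm38.p6, the assembly that mm10 names) were found for 7 of the 9 members, and Cxcl11 and Cxcl16 were not among them. The 250 bases before the start are shown for Cxcl9 and Cxcl10, neighbours that rose by different amounts, and for Cxcl12 and Cxcl14, which were high in the same libraries. Capitals mark matches, on either strand, to the interferon-stimulated response element (ISRE, a pair of GAAA blocks with 2 free bases between them), the gamma-activated site (GAS, TTCNNNGAA) or the kB consensus of NF-kB.
Cxcl10, chr5:92348890-92349139, minus strand: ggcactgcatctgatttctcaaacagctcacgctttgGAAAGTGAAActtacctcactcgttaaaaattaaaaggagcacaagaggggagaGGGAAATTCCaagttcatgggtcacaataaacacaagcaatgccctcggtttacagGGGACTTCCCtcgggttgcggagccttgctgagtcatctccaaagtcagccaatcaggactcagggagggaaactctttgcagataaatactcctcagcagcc
Cxcl9, chr5:92328080-92328329, minus strand: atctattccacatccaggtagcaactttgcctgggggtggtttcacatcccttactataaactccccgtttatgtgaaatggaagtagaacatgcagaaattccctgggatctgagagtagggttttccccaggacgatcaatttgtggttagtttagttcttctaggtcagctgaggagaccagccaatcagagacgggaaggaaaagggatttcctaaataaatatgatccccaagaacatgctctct
Cxcl12, chr6:117168285-117168534, plus strand: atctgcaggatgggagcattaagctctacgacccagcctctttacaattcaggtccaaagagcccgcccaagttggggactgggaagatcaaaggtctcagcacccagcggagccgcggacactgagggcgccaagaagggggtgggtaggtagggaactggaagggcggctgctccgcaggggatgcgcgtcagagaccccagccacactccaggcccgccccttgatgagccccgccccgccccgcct
Cxcl14, chr13:56296552-56296801, minus strand: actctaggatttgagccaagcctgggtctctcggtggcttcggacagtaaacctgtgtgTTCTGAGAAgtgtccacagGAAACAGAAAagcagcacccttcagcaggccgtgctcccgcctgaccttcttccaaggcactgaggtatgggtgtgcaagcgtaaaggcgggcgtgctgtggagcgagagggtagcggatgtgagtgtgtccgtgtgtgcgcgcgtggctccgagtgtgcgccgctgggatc

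In the Cxcl10 window the ISRE match GAAAGTGAAA lay 213 to 204 bases before the start, and the 2 kB matches GGGAAATTCC and GGGACTTCCC lay 159 to 150 and 103 to 94 bases before it. Cxcl14 held 1 ISRE match, GAAACAGAAA, and 1 GAS match, TTCTGAGAA, which did not overlap. The windows of Cxcl9, Cxcl12, Cxcl13, Xcl1 and Cx3cl1 held no match to any of the 3 motifs. Among all 32851 promoter entries, windows of the same length held an ISRE match in 2.98%, a GAS match in 7.02% and a kB match in 3.90%. A match here is a string of letters and not a measured binding site.

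All 9 chemokines had a higher mean in iKO than in Ctrl, but the libraries bore this out unevenly. Of the 8 members that passed the filter on low counts, 6 rose in iKO: Cxcl9, Cxcl10, Cxcl11, Cxcl13, Cxcl16 and Cx3cl1, with log2 fold changes from 1.78 to 4.65 (edgeR quasi-likelihood test, adjusted p below 0.05). None fell with edgeR, with 0 lower also at an unadjusted p below 0.05, and 0 lower with DESeq2 or limma voom. Among all 16164 tested genes 46.4% were called, 25.0% higher and 21.4% lower. The median log2 fold change was 2.15 over the 8 members and 0.023 over all tested genes. In 4 members, Cxcl9, Cxcl10, Cxcl11 and Cx3cl1, every iKO library lay above every Ctrl library, which was so for 11.8% of all tested genes. In these sorted but bulk samples, more cells of a type and more RNA per cell cannot be told apart.

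**Figure D1:**
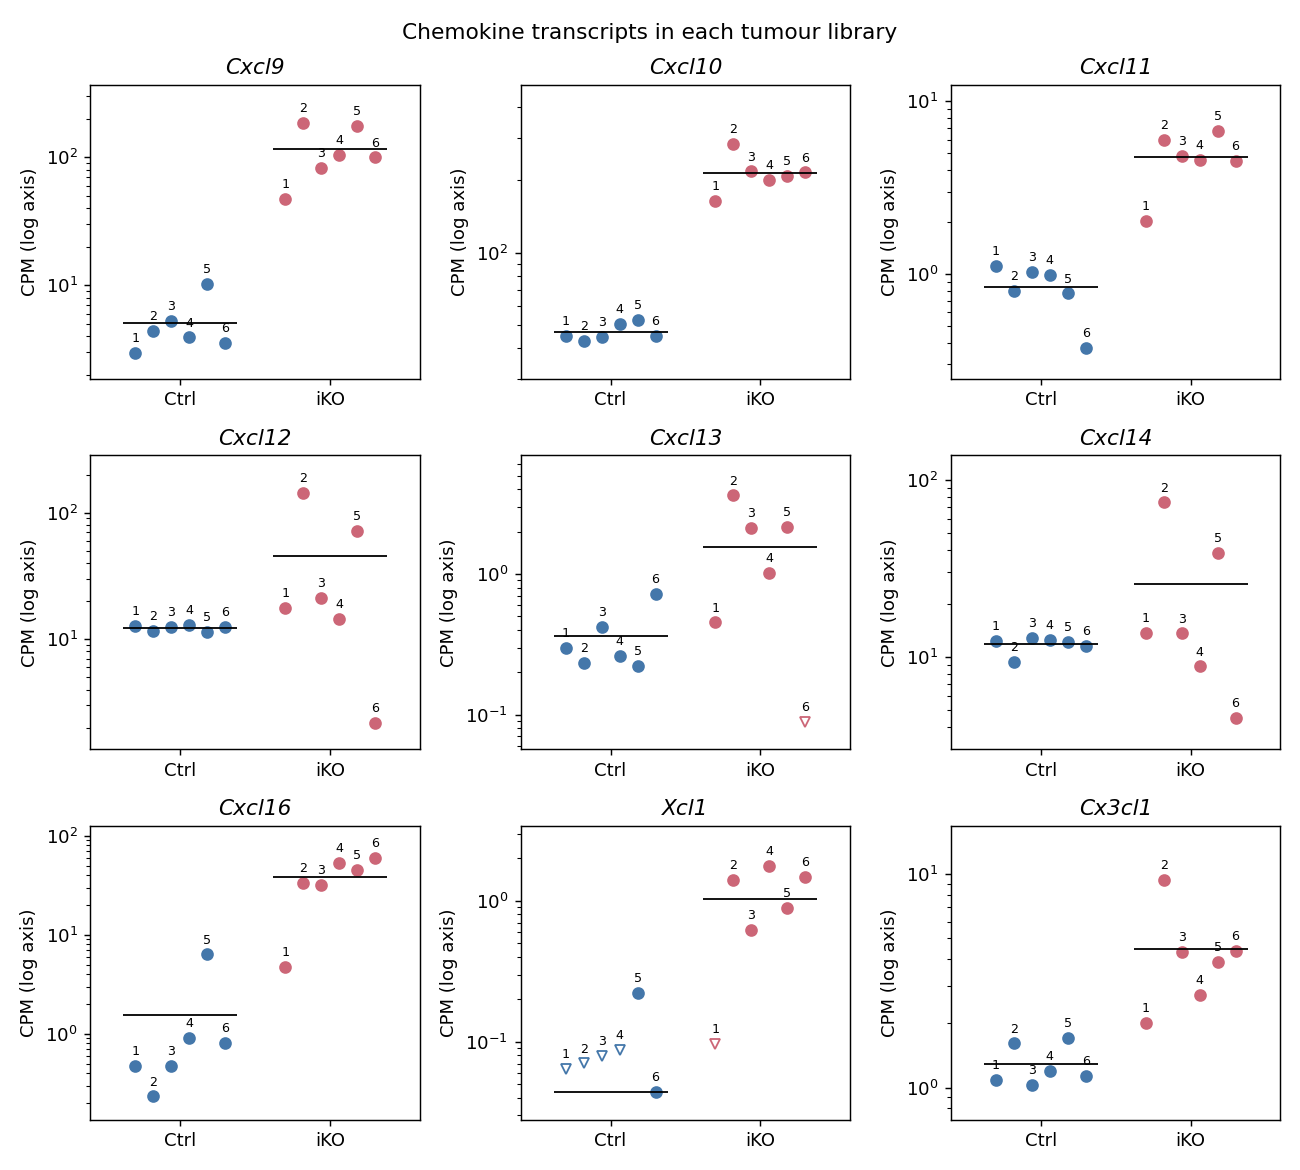
Each panel plots 1 chemokine in CPM on a log axis, with 1 point per library (numbered by replicate) for Ctrl (blue) and iKO (red) and a line at the group mean; open triangles mark libraries with 0 counts, drawn at the level of 3 counts. Cxcl9, Cxcl10, Cxcl11 and Cx3cl1 separate the groups fully, whereas Cxcl12 and Cxcl14 spread widely in iKO, from 2.17 to 144 CPM and from 4.51 to 74.6 CPM.

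The CXCR3 ligands were higher in every iKO library than in any Ctrl library. Cxcl10 had a minimum of 42.8, a median of 45.1 and a maximum of 52.6 CPM in Ctrl, and 164, 211.9 and 282 CPM in iKO. The 6 Ctrl libraries were close together with Ctrl 5 highest, iKO 1 was the lowest and iKO 2 the highest iKO library, and the groups did not overlap. The mean went from 46.9 ± 3.83 to 214.6 ± 38.4 CPM (SD, n = 6 each), a log2 fold change of 2.20 ± 0.11 (SE; edgeR, adjusted p = 7.17e-09), or 4.58-fold. Cxcl10 shares 5.91% of its exon bases with Art3 on the opposite strand, and the libraries did not keep strand.

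Cxcl9 started lower and rose further. Its minimum, median and maximum were 2.98, 4.14 and 10.2 CPM in Ctrl and 47.0, 102 and 186 CPM in iKO. Ctrl 5 was the highest Ctrl library and iKO 1 the lowest iKO library, so the 2 libraries nearest each other were again those between the groups in leukocyte markers. The log2 fold change was 4.53 ± 0.44 (SE; edgeR, adjusted p = 3.13e-05), or 23.1-fold, and 4.89 without Ctrl 5. None of the exon bases of Cxcl9 are shared with another annotated gene.

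Cxcl11 was the weakest of the trio, at 0.372 to 1.11 CPM in Ctrl (median 0.892) and 2.04 to 6.73 CPM in iKO (median 4.72). It rose by a log2 fold change of 2.50 ± 0.31 (SE; edgeR, adjusted p = 3.60e-05), or 5.66-fold, with iKO 1 again the lowest iKO library. GENCODE annotates Cxcl11 as a polymorphic pseudogene, since the reference strain lacks an intact reading frame, so the transcript level says nothing of a protein. Of its exon bases 41.7% are shared with Gm2673 on the opposite strand, which had 0 counts in every library. The libraries did not keep strand and the counting rule is not given, so reads from the shared bases may be missing from either gene. This limits the level of Cxcl11 against other genes, also per kilobase, and the 0 counts do not show that Gm2673 was silent.

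The balance among the CXCR3 ligands shifted. A count ratio within a library needs no scaling between libraries, and the ratio of Cxcl9 to Cxcl10 counts (0.5 added to each) was 0.0660 to 0.195 in Ctrl and 0.287 to 0.848 in iKO, without overlap. The mean log2 ratio rose by 2.32, or 5.00-fold (two-sided exact permutation test with all groupings of the 12 libraries, p = 0.00216, the smallest this design gives, adjusted p = 0.00866 over 4 ratios). The ratio of Cxcl11 to Cxcl10 was 0.00850 to 0.0249 in Ctrl and 0.0125 to 0.0323 in iKO, a difference of 0.30 on the log2 scale that did not exceed the spread (exact permutation test, adjusted p = 0.370).

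Relative to the leukocyte marker Ptprc, Cxcl10 and Cxcl9 were lower in iKO, and so was Cxcl16, given further on. Counts of Cxcl10 per count of Ptprc ranged from 3.38 in Ctrl 5 to 261 in Ctrl 3 and from 0.580 to 9.43 in iKO, with a lower mean log2 ratio in iKO (difference -5.22, exact permutation test, adjusted p = 0.00866). Counts of Cxcl9 per count of Ptprc were also lower in iKO, with a difference of -2.90 (exact permutation test, adjusted p = 0.0202), and ranged from 0.658 to 30.7 in Ctrl and from 0.302 to 2.70 in iKO. Across the 5 Ctrl libraries other than Ctrl 5, Cxcl10 stayed between 42.8 and 50.6 CPM with Ptprc at 1.54 CPM or less. Their ratios rest on only 6 to 53 Ptprc counts per library. Ptprc rose by a log2 fold change of 5.98, more than Cxcl10 or Cxcl9, so lower ratios follow from these fold changes and the tests add no separate support. Between Ctrl 5 and iKO 1, at like Ptprc levels, both ratios went the other way. Cxcl10 per Ptprc was 3.38 and 9.43, and Cxcl9 per Ptprc was 0.658 and 2.70.

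Ctrl 5 and iKO 1 allow a look at nearly equal leukocyte marker levels, a pairing made after their values were seen and with 1 library on each side. Ptprc was at 15.6 CPM in Ctrl 5 and 17.4 CPM in iKO 1, and the mean log2 CPM of the 10 leukocyte markers was 4.06 and 3.67. Their make-up differed: macrophage and monocyte markers summed to 502 CPM in Ctrl 5 and 282 CPM in iKO 1, and T cell markers to 8.72 and 15.02 CPM. Of the T cell markers, Lck alone was at 3.61 to 5.40 CPM across Ctrl, so it made up much of the T cell sums there. Cxcl10 was at 52.6 CPM in Ctrl 5 and 164 CPM in iKO 1, a ratio of 3.12 (95% exact interval 2.96 to 3.29, for counting error only). Cxcl9 was at 10.2 and 47.0 CPM, a ratio of 4.59 (4.09 to 5.16). Cxcl11 was at 0.772 and 2.04 CPM, a ratio of 2.64 (1.66 to 4.27). Cxcl16 ran the other way, at 6.34 CPM in Ctrl 5 and 4.72 CPM in iKO 1, a ratio of 0.743 (0.600 to 0.919), and Cx3cl1 differed little, at 1.71 and 2.00 CPM (ratio 1.17, 0.810 to 1.69). Xcl1 had 8 counts in Ctrl 5 and 0 in iKO 1. The part of the differing make-up in these ratios was not tested.

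A fit with the leukocyte marker score as covariate, which leans on those same 2 libraries, kept 2 of the 6 calls. With edgeR, Cxcl10 stood at 1.74 on the log2 scale (adjusted p = 0.000318) and Cxcl9 at 2.66 (adjusted p = 0.0214). The calls of the other 4 members ended: Cxcl11 stood at 1.55 (edgeR, adjusted p = 0.203), Cx3cl1 at 0.84 (0.523), Cxcl13 at 2.24 (0.586) and Cxcl16 at 0.014 (0.985). In that fit 986 of all tested genes were higher and 1045 lower, against 4037 and 3464 without the score.

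**Figure D2:**
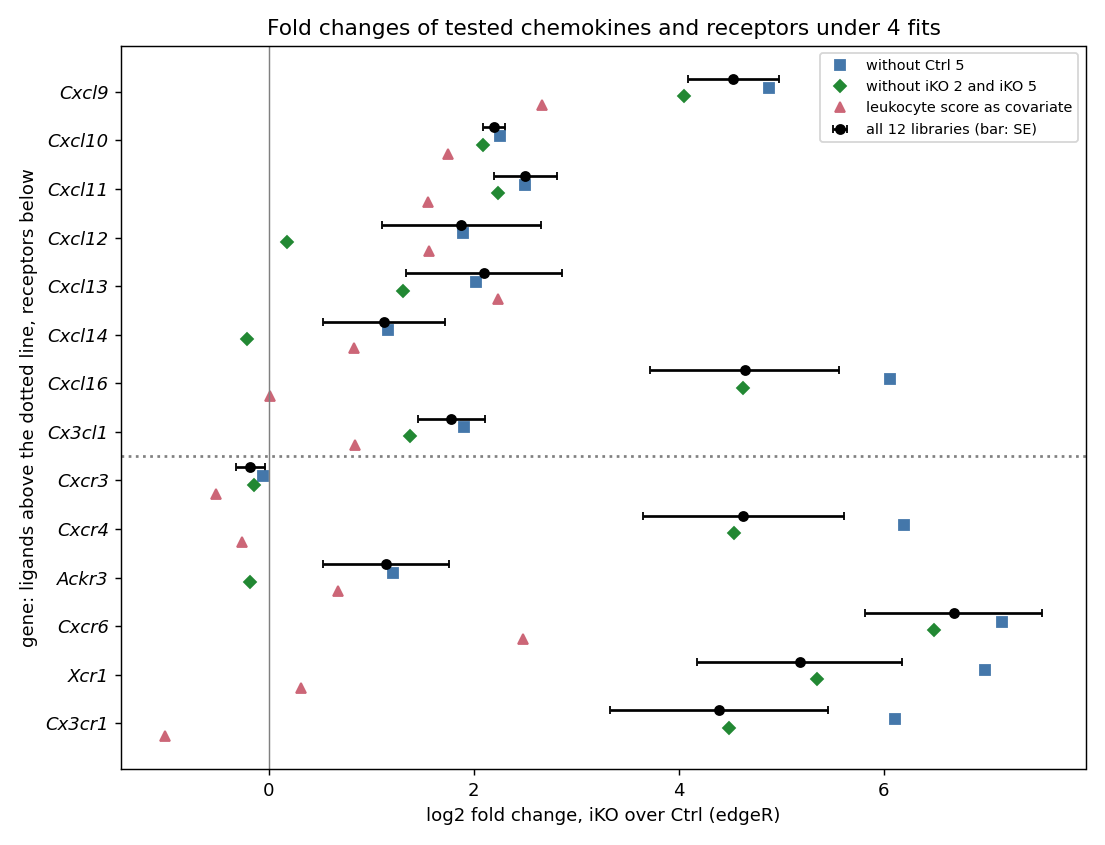
The horizontal axis is the log2 fold change of iKO over Ctrl from edgeR for the 8 tested chemokines and the 6 tested receptors; black points with SE bars use all 12 libraries, and the other symbols leave libraries out or add the leukocyte score. Cxcl9 and Cxcl10 stay well above 0 under each fit, Cxcl16 goes to 0.014 with the score, and Cxcl12 goes to 0.17 without iKO 2 and iKO 5.

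Cxcl16 (chromosome 11, 70453983 to 70459984), a membrane-bound ligand that also acts as a scavenger receptor on macrophages and dendritic cells, was high in the libraries that were high in Ptprc. It had a minimum of 0.234, a median of 0.642 and a maximum of 6.34 CPM in Ctrl, and 4.72, 39.1 and 59.4 CPM in iKO. Ctrl 5 lay above iKO 1, so the groups overlapped, while the other 5 iKO libraries were at 32.2 CPM or more. The log2 fold change was 4.65 ± 0.92 (SE; edgeR, adjusted p = 0.00229), or 25.0-fold, and 6.06 without Ctrl 5. Counts of Cxcl16 per count of Ptprc, looked at after the values were seen, were 0.408 in Ctrl 5, 0.589 to 2.85 in the other 5 Ctrl libraries and 0.155 to 0.272 in iKO, so every iKO library lay below every Ctrl library (difference in mean log2 ratio -2.18, not tested). Macrophage and monocyte markers summed to 17.3 to 58.1 CPM in 5 Ctrl libraries, 502 in Ctrl 5, 282 in iKO 1 and 1557 to 2570 CPM in the other iKO libraries; 10 of 12 were called higher, none was at 0 in all libraries of a group, and their part in the rise was not tested. Of the exon bases of Cxcl16 18.3% are shared with Zmynd15 on the opposite strand, which had 172 counts in Ctrl and 1913 in iKO.

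Xcl1 (chromosome 1, 164931644 to 164935527), a product of activated CD8 T cells and natural killer cells, was too low in Ctrl and in iKO 1 to pass the filter. It had 10 counts in all Ctrl libraries, 8 of them in Ctrl 5 and 2 in Ctrl 6, and 198 counts in iKO. A count of 0 in iKO 1 allows up to 0.0969 CPM there, while the other 5 iKO libraries were at 0.624 to 1.77 CPM. The count ratio over library totals was 24.2 (95% exact interval 12.9 to 51.3, counting error only) and 103 (28.1 to 855) without Ctrl 5. When genes of low counts were kept, its log2 fold change was 4.43 (edgeR, adjusted p = 0.0109). T cell markers summed to 3.72 to 8.72 CPM in Ctrl, of which Lck alone was 3.61 to 5.40 CPM. They summed to 15.02 CPM in iKO 1 and to 78.0 to 169.6 CPM in the other iKO libraries. Of the tested T cell markers 9 of 9 were higher, and so were all 3 tested natural killer cell markers. Among all tested genes 25.0% were higher. Lck and Eomes aside, these markers had few counts in Ctrl and passed the filter only through iKO, where they were high. That all were higher thus adds no separate support. The part of T cells and natural killer cells in the level of Xcl1 was not tested. Of its exon bases 18.7% are shared with Gm20743, which had 0 and 10 counts.

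Cx3cl1 (fractalkine, chromosome 8, 94772009 to 94782427), held on endothelial and epithelial membranes until it is shed, rose in every iKO library. Its minimum, median and maximum were 1.03, 1.17 and 1.71 CPM in Ctrl and 2.00, 4.12 and 9.42 CPM in iKO, with iKO 2 far above the others. The log2 fold change was 1.78 ± 0.32 (SE; edgeR, adjusted p = 0.000617), or 3.44-fold, and 1.42 without iKO 2. Endothelial markers summed to 23.5 to 31.6 CPM in Ctrl and 22.7 to 61.8 CPM in iKO, with 3 of 8 higher and 1 lower, and none at 0 throughout a group. Keratinocyte markers summed to 172 CPM in iKO 2 and to 13.5 CPM or less in each other library, with 4 of 4 tested markers higher and 1 of 6 at 0 in all Ctrl libraries. The part of either cell type in the level of Cx3cl1 was not tested.

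Cxcl12 and Cxcl14 were set apart by their spread. Cxcl12 (chromosome 6, 117168535 to 117181367) lay between 11.5 and 13.0 CPM in all 6 Ctrl libraries (median 12.5), but between 2.17 and 144 CPM in iKO (median 19.5). Libraries iKO 2 (144 CPM) and iKO 5 (71.8 CPM) were high, iKO 6 was below every Ctrl library, and the other 3 iKO libraries were at 14.5 to 21.2 CPM. The log2 fold change of 1.88 ± 0.77 (SE) did not pass the threshold (edgeR, adjusted p = 0.0705). It was 2.13 without iKO 6, where it passed (adjusted p = 0.0161), 1.05 without iKO 2 (adjusted p = 0.220) and 0.17 without iKO 2 and iKO 5 (adjusted p = 0.808), an omission chosen after the data were seen.

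Cxcl14 (chromosome 13, 56288643 to 56296551) showed the same high and low libraries. It was at 9.37 to 12.9 CPM in Ctrl (median 12.3) and at 4.51 to 74.6 CPM in iKO (median 13.61), with iKO 2 at 74.6, iKO 5 at 38.8 and iKO 6 at 4.51 CPM. Its log2 fold change was 1.12 ± 0.60 (SE; edgeR, adjusted p = 0.148) and -0.22 without iKO 2 and iKO 5 (edgeR, adjusted p = 0.536). None of the exon bases of Cxcl12 or Cxcl14 are shared with another annotated gene.

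The fibroblast markers had the same extremes. The 9 markers summed to 2403 to 2740 CPM in Ctrl, to 15918 CPM in iKO 2, 10549 CPM in iKO 5 and 667 CPM in iKO 6, and to 2026 to 2537 CPM in the other 3 iKO libraries. Of the 9 markers 2 were called higher, and none was at 0 throughout a group. The gene whose profile over the 12 libraries was nearest to that of Cxcl12 was Pdgfra, a receptor of fibroblasts and a member of this marker list, with a root mean square difference of 0.15 in log2 CPM centred on each gene's mean. Counts of Cxcl12 per count of Pdgfra ran from 1.16 to 1.49 in Ctrl and from 1.10 to 1.65 in iKO, although Cxcl12 itself spread 66.3-fold among the iKO libraries. The next nearest gene was Dcn (decorin), also of this list, at 0.27. Counts of Cxcl14 per count of Pdgfra ran from 0.939 to 1.58 in Ctrl and from 0.751 to 2.56 in iKO, with iKO 6 highest. As Pdgfra was picked for its likeness to Cxcl12, these ratios are a description, and the part of fibroblasts in the spread of Cxcl12 and Cxcl14 was not tested.

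**Figure D3:**
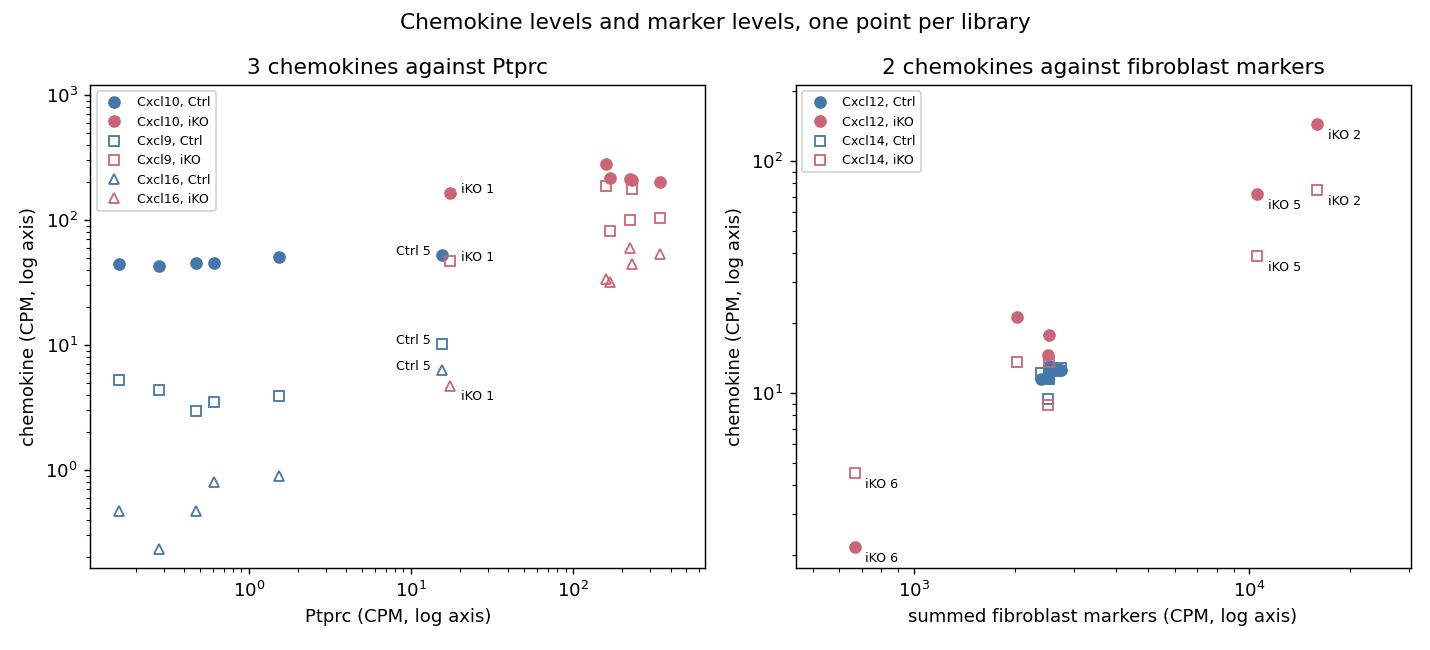
Each point is 1 library, blue for Ctrl and red for iKO; the left panel sets Cxcl10, Cxcl9 and Cxcl16 against Ptprc and the right panel Cxcl12 and Cxcl14 against the summed fibroblast markers, all in CPM on log axes. At like Ptprc levels iKO 1 lies above Ctrl 5 in Cxcl10 (164 against 52.6 CPM) and Cxcl9 but not in Cxcl16, and iKO 2, iKO 5 and iKO 6 mark the extremes of Cxcl12, Cxcl14 and the fibroblast markers.

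Cxcl13 (chromosome 5, 95956951 to 95961068), which guides B cells, lies 3591465 bases beyond Cxcl11 and was low throughout. It was at 0.221 to 0.723 CPM in Ctrl (median 0.281) and at 0 to 3.61 CPM in iKO (median 1.57), with 0 counts in iKO 6 and overlapping groups. The log2 fold change of 2.10 ± 0.76 (SE) passed narrowly (edgeR, adjusted p = 0.0375). The call was lost when any 1 of Ctrl 1 to 5, iKO 2, iKO 3 or iKO 5 was left out (edgeR, adjusted p of 0.0607 to 0.0867) and with limma voom (log2 fold change 1.01, adjusted p = 0.518). B cell markers summed to 0.304 to 2.70 CPM in Ctrl and 3.62 to 35.1 CPM in iKO, with 1 of 2 tested markers higher and 2 of 6 at 0 in all Ctrl libraries.

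Per kilobase of gene length, Cxcl10 was the most abundant member in both groups, at 20.8 ± 1.70 CPM per kilobase in Ctrl and 95.3 ± 17.0 in iKO (SD, n = 6 each). In Ctrl it was followed by Cxcl14 (6.45 ± 0.69 CPM per kilobase), and both stood clear of every library of the next gene. Cxcl9 (1.67 ± 0.88) and Cxcl12 (1.50 ± 0.077) came next and each was the higher in 3 of 6 libraries. Cxcl16, Cx3cl1, Cxcl13, Cxcl11 and Xcl1 lay at mean levels of 0.510 to 0.0843 CPM per kilobase with overlapping neighbours. In iKO Cxcl9 stood second at 38.5 ± 18.1 CPM per kilobase, above Cxcl14 (14.0 ± 14.7) in all 6 libraries, while Cxcl14 was above Cxcl16 (12.6 ± 6.47) in 3 of 6. Cxcl12 (5.52 ± 6.59) followed, and Xcl1, Cxcl13, Cxcl11 and Cx3cl1 lay between 1.96 and 1.14 with overlapping ranges.

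**Figure D4:**
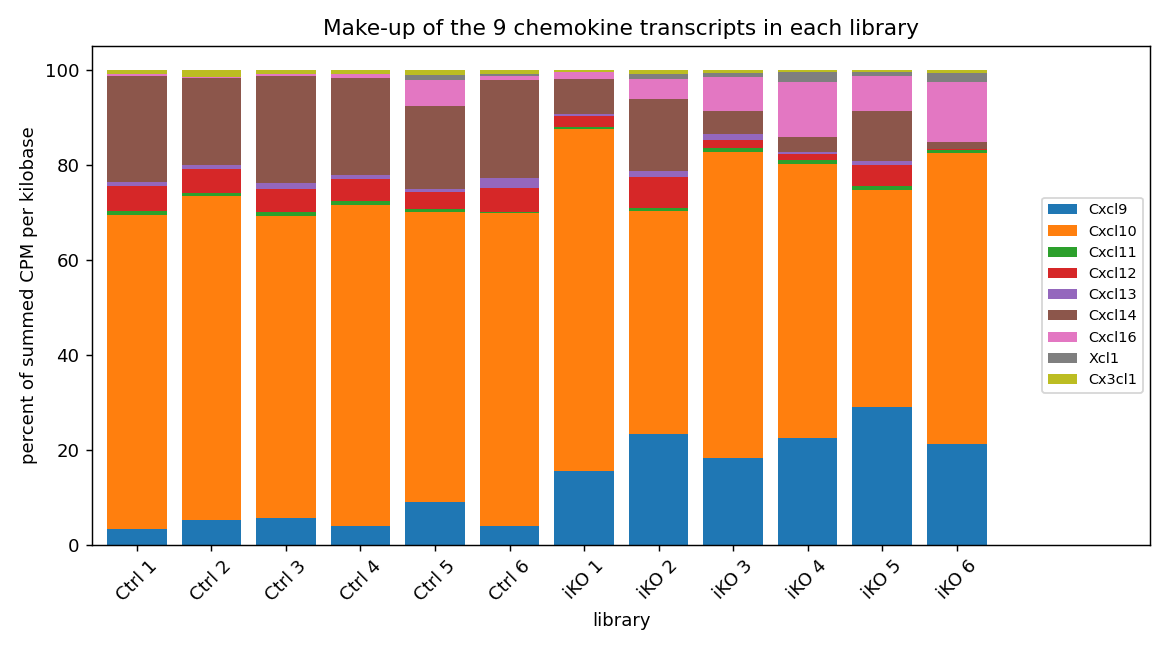
Each bar is 1 library and shows the percent that each chemokine takes of the summed CPM per kilobase of all 9. The share of Cxcl9 is 3.25 to 8.89% in Ctrl and 15.4 to 29.0% in iKO, and that of Cxcl14 is 17.5 to 22.5% in Ctrl and 1.58 to 15.3% in iKO.

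Of the summed level of the 9 transcripts, Cxcl10 took 65.4 ± 2.61% in Ctrl and 58.0 ± 10.2% in iKO (SD, n = 6 each, per kilobase). Cxcl9 went from 5.11 ± 2.05% to 21.6 ± 4.63%, and Cxcl16 from 1.43 ± 2.01% to 7.37 ± 4.21%. Cxcl14 went from 20.3 ± 2.05% to 7.15 ± 5.10%, without overlap between the groups. These shares sum to a fixed total, so a larger share of 1 member lowers the others, and they were not tested.

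Receptors of the members changed in different ways. Of 7 receptor genes 6 passed the filter and 4 rose (25.0% of all genes did): Cxcr4, Cxcr6, Xcr1 and Cx3cr1. Cxcr6, Xcr1 and Cx3cr1 had 21, 18 and 93 counts over all Ctrl libraries and passed the filter only through iKO, where they were high. The count of receptors that rose thus adds no separate support. Cxcr3, the receptor of Cxcl9, Cxcl10 and Cxcl11 on activated T cells and natural killer cells, did not pass the test: it was at 7.15 to 10.8 CPM in Ctrl (median 7.78) and 5.55 to 8.56 CPM in iKO (median 7.29), with a log2 fold change of -0.18 ± 0.14 (SE; edgeR, adjusted p = 0.306). It had 1979 counts in Ctrl, where T cell markers summed to 8.72 CPM or less, of which Lck alone was 3.61 to 5.40 CPM. Cxcr6, the receptor of CXCL16, went from a median of 0.0652 CPM in Ctrl to 9.69 CPM in iKO, and every iKO library lay above every Ctrl library (log2 fold change 6.68 ± 0.86, edgeR, adjusted p = 0.000134).

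Cxcr4, the main receptor of CXCL12, lay at 0.187 to 5.16 CPM in Ctrl and at 3.42 to 50.3 CPM in iKO and rose (log2 fold change 4.63, and 6.20 without Ctrl 5; edgeR, adjusted p = 0.00331 and 0.000144). Xcr1, the receptor of XCL1 on cross-presenting dendritic cells, rose by 5.18 (6.99 without Ctrl 5; edgeR, adjusted p = 0.00141), and Cx3cr1, found on monocytes and macrophages, by 4.39 (6.11 without Ctrl 5; edgeR, adjusted p = 0.00639). Ackr3, the other CXCL12 receptor, which takes up and removes the chemokine, did not pass (log2 fold change 1.14, adjusted p = 0.152 with edgeR). It was highest in iKO 5 (38.6 CPM) and iKO 2 (31.3 CPM) and lowest in iKO 6 (1.72 CPM), the libraries that were extreme in Cxcl12. It passed without iKO 6 (log2 fold change 1.38, edgeR, adjusted p = 0.0358). Cxcr5 had 0 counts in Ctrl against 108 in iKO and did not pass the filter. The lower 95% exact limit of its count ratio over library totals was 35.2, for counting error only. Its counts were uneven, with 0 in iKO 1, 4 in iKO 2, 5 in iKO 3 and 18 to 49 in the other iKO libraries. With the leukocyte score as covariate none of the 6 tested receptors was called (edgeR, adjusted p of 0.248 or more), with Cxcr6 at 2.48, Ackr3 at 0.67, Xcr1 at 0.32, Cxcr4 at -0.27, Cxcr3 at -0.51 and Cx3cr1 at -1.01 on the log2 scale.

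Genes of interferon signalling rose too, beside 25.0% of all tested genes called higher. Of 8 genes of the interferon gamma signal 7 rose (median log2 fold change 1.10 over the 8), including Irf1, a transcription factor, by 1.82, and the kinases Jak2 and Jak1 by 0.88 and 0.58 (edgeR, adjusted p of 1.76e-05 or less). Ifng itself went from 14 counts in Ctrl, all in Ctrl 5, to 949 in iKO, and passed the filter only through iKO. At nearly equal Ptprc, with 1 library on each side, Irf1 was at 74.2 CPM in Ctrl 5 and 148 CPM in iKO 1, a ratio of 1.99. Ifng had 14 counts in each, a ratio of 1.17 (95% exact interval 0.518 to 2.65, for counting error only). That interval also covers the ratio of Irf1, so these counts cannot tell whether Ifng differed as much. The part of Ifng in the level of Irf1 was not tested. All 6 tested genes of the type I interferon signal rose, with a median of 0.96, among them Irf7 (3.60), Stat2 (2.11), Irf9 (1.27) and the receptor chain Ifnar2 (0.59; edgeR, adjusted p of 0.000166 or less). Ifnb1, which encodes interferon beta, had 2 counts in Ctrl and 122 in iKO and did not pass the filter. With the leukocyte score as covariate, 3 genes of the interferon gamma list and 3 of the type I list were called higher. Of all 16164 tested genes 986 were called higher in that fit.

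Of the genes that cleave the members, Dpp4, a peptidase that trims and inactivates CXCR3 ligands and CXCL12, rose (log2 fold change 2.94, edgeR, adjusted p = 0.000506). The shedding proteases Adam10 and Adam17, which release CXCL16 and CX3CL1 from membranes, stood at 0.13 and 0.19 (edgeR, adjusted p = 0.0870 and 0.0758). Among 8 other CXC chemokines, most of which draw neutrophils or come from platelets, 5 were tested and 2 rose, beside 25.0% of all tested genes. The 2 were Cxcl2, by 3.66, and Cxcl3, by 3.46 (edgeR, adjusted p = 0.0194 and 0.0322). The count of those that rose was 1 when any 1 of Ctrl 1, 2, 3 or 6 or iKO 5 or 6 was left out. It was 0 with the leukocyte score or without both iKO 2 and iKO 3, and 4 without both Ctrl 5 and iKO 1. Neutrophil markers summed to 0.0527 to 6.04 CPM in Ctrl and 1.39 to 47.5 CPM in iKO, with 3 of 4 tested markers higher, and their part in these rises was not tested.

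The genes nearest in profile to the other members differed from member to member, by the same root mean square measure over 12 libraries and 12413 protein-coding genes. Nearest to Cxcl10 were Ifi47 (0.12) and Gbp3 (0.12), and to Cxcl16 Cd300lb (0.28) and Fcer1g (0.30). Cxcl9 was nearest to Xdh (0.41) and Gm15448 (0.43), Cxcl11 to Samhd1 (0.38) and Il1r2 (0.39), and Cx3cl1 to Cdh6 (0.29) and Cdc42ep2 (0.33). For Cxcl14 they were Col5a2 and Nfatc4 (0.18 each), and for Cxcl13 Mrgprf (0.63) and Itga11 (0.68). Among the members the nearest pair was Cxcl10 and Cxcl11 (0.46), followed by Cxcl10 and Cx3cl1 (0.47) and Cxcl12 and Cxcl14 (0.52), and the farthest was Cxcl12 and Cxcl16 (2.89).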

How the data were processed

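The authors deposited a table of unscaled counts for each Ensembl gene. The submitters' processing notes name the build mm10. Libraries were poly-T selected and not strand specific, per the labels' protocols; for the aligner and counting program, nothing is given in the sources used here. Gene lengths are those of the deposited table, and exon overlaps were taken from GENCODE M21 (GRCm38).

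All 12 libraries (6 Ctrl, 6 iKO) entered 1 fit with edgeR 4.0.16 in R 4.3.3: genes kept by a minimum count of 10 and a minimum total of 15, TMM scaling, robust quasi-likelihood test with group as the only term, and Benjamini-Hochberg adjustment over 16164 genes at a threshold of 0.05. A gene near 0 in Ctrl passed this filter only by being high in iKO, so counts of such genes called higher add no support for a rise. The SE is the log2 fold change over the square root of F. The fit was tested on simulated data. No 2 libraries of a group agreed within sampling noise (chi-square per degree of freedom of 7.47 or more), so none was treated as a library deposited again; this does not show that they came from separate mice. Alternatives were DESeq2 1.42.0, limma 3.58.1 (voom), other scalings, no filter, a leukocyte score as covariate, a replicate block and left-out libraries.

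The members, gene lists, ratios and alternatives were chosen with earlier results of these data known. Named genes were the members, Trex1, Ptprc, Pecam1, all receptors, for each other pathway list up to 4 genes with the smallest p past the threshold, and for each tested member the 2 protein-coding genes nearest in profile (mean of at least 1 CPM). Other genes were named after their values were seen, and 1 gene that the rule names is not reported here.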

Additional observations from a re-analysis of the deposited data

Results flagged for a closer look

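By Dixon's criterion for 6 samples at the 95% level, single libraries stood far from their group in 9 of 36 groups looked at. The 36 groups were 18 genes in Ctrl and in iKO, and Cxcr5 in Ctrl, at 0 throughout, could not be assessed. Chance gives about 1 in 20 for normally spread values, which low counts such as those of Xcl1 are not. The groups also share the same libraries, so the flags are not separate events to set against that rate. Ctrl 5 accounted for 8 of the 9. Among the chemokines it was high in Cxcl9 (10.2 CPM, against 2.98 to 5.25 in the other Ctrl libraries), Cxcl16 (6.34 CPM, against 0.234 to 0.903) and Xcl1 (0.221 CPM, against 0 to 0.0438). Among the receptors it was high in Cxcr3 (10.8 CPM, against 7.15 to 8.28), Cxcr4 (5.16 CPM, against 0.187 to 0.903), Xcr1 (0.386 CPM, against 0 to 0.117) and Cx3cr1 (1.88 CPM, against 0 to 0.262). Ptprc was at 15.6 CPM there and at 1.54 CPM or less in the other Ctrl libraries. The remaining case was Cx3cl1 in iKO 2 (9.42 CPM, against 2.00 to 4.39 in the other iKO libraries).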

How the results depend on the processing

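When any 1 library was left out, 5 to 7 members were called higher, with Xcl1 among those tested in 7 of these fits. Among all tested genes 4484 of 16573 were higher without iKO 1, and 3707 of 16338 without iKO 5. No member was called lower in any fit run. Cxcl9 and Cxcl10 kept their calls in all 22 alternatives (log2 fold changes of 2.66 to 5.05 and 1.74 to 2.32). With the leukocyte score as covariate, 2 members, 0 receptors, 0 cleavage genes, 3 interferon gamma genes, 3 type I interferon genes and 0 of the other CXC chemokines were higher, with 986 genes higher and 1045 lower in all. Pecam1 stood at -0.14 (1.38 without the score), Cxcr4 at -0.27 and Cx3cr1 at -1.01 in that fit. None of them was called there, and the cause was not tested. Without both Ctrl 5 and iKO 1, 2 cleavage genes and 4 other CXC chemokines were higher; without both iKO 2 and iKO 3 these were 2 and 0. Without both iKO 2 and iKO 5 (chosen after seeing the data) 0 other CXC chemokines were higher, and Cxcl14 (-0.22) and Ackr3 (-0.18) changed sign. When 1 library was left out, 1 to 3 other CXC chemokines were higher (1 without Ctrl 1, 2, 3 or 6 or iKO 5 or 6) and 1 to 2 cleavage genes (2 without Ctrl 2 or 3 or iKO 1 or 2). In the fit without a filter Cxcl13 lost its call (edgeR, adjusted p = 0.0835) and with DESeq2 Cxcl12 gained one (adjusted p = 0.0251). The labels number both groups 1 to 6, but same-numbered libraries did not deviate together (correlations from -0.13 to 0.25, 2 of 6 pairs over 0.1; 1 Ctrl and 1 iKO library matched its own number best), so the numbers were not taken as pairs. With the replicate block Cxcl13 stood at 1.74 (edgeR, adjusted p = 0.233) and the other 5 calls were kept. With sign flips over same-numbered libraries, the ratio differences of 2.32 (Cxcl9 to Cxcl10), -2.90 (Cxcl9 to Ptprc) and -5.22 (Cxcl10 to Ptprc) had adjusted p of 0.0625, 0.0833 and 0.0625 under this block (exact permutation). For Cxcl9 to Cxcl10 and Cxcl10 to Ptprc, all 6 pairs went the same way. Their unadjusted p was thus the smallest that sign flips of 6 pairs can give. Depth limits Xcl1, Cxcl11 and Cxcl13, with 10, 204 and 90 counts in all Ctrl libraries.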
